A study of Mus musculus with 6 samples.

Results

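The 8 genes described here make, carry and bind retinoids: *Aldh1a1*, *Aldh1a2*, *Aldh1a3*, *Rdh10*, *Rbp4*, *Stra6*, *Crabp1* and *Crabp2*. They were chosen by name from the RNA-seq table of the study, which holds 22969 genes once rows with the same name are summed, and all 8 were found. The mouse ESC line E14Tg2a (passages 37 to 40) was compared in 2 states. Pluripotent ESCs were kept with LIF and gave 3 samples. NCs, the study's name for neuronal cells, gave 3 samples after 2 days (48 h) without LIF in 1 μM RA. The medium of the cultures contained serum, and the samples come from 1 cell line. LIF was removed and RA added together, so their parts in any difference cannot be told apart.

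Vitamin A reaches a cell as retinol, carried in plasma by RBP4 and taken up through the membrane receptor STRA6. RDH10 oxidizes retinol to retinal, and enzymes of the ALDH1A family oxidize retinal to RA. Inside the cell RA is held by CRABP1 and CRABP2 and acts through RAR and RXR receptors in the nucleus, and CYP26 enzymes break it down. In the embryo *Aldh1a2* supplies most RA to the trunk and the posterior hindbrain.

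Expression was measured as FPKM, a count of fragments scaled by transcript length and library depth, which allows levels of different genes to be compared per length. Each gene has a pooled estimate for ESCs and another for NCs, each made by the authors from 3 samples, and these are called the authors' values below. Replicates are therefore not visible, no SD or p-value is given, and no difference could be set against the spread between samples. A gene was called higher or lower when its FPKM differed at least 2-fold and its mean over both conditions was at least 1 FPKM. These criteria were met in the higher direction by 1420 of 12785 genes (11.1%) and in the lower direction by 1270 genes (9.93%). RNA came from whole cultures, in which fewer cells of a type and less RNA per cell cannot be told apart.

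Of the 8 genes, 6 were at least 2-fold higher in NCs, where 11.1% of all genes past the filter were. None was called lower, *Rdh10* lay within the limit and *Aldh1a3* did not reach a mean of 1 FPKM. *Aldh1a1* and *Stra6* were under 1 FPKM in ESCs and passed the filter through their NC value alone, so they had to differ. With at least 1 FPKM required in both conditions, 5 of the 8 genes passed and 4 of them were at least 2-fold higher, against 7.45% of the 11717 genes that passed. The median log2 ratio was 2.14 over the 8 genes and 2.15 over the 7 of them past the filter. Over all genes past the filter that were above 0 in both conditions it was -0.04. Genes at 0 in either condition have no ratio and are left out of the medians and ranks of ratios.

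**Figure D1:**
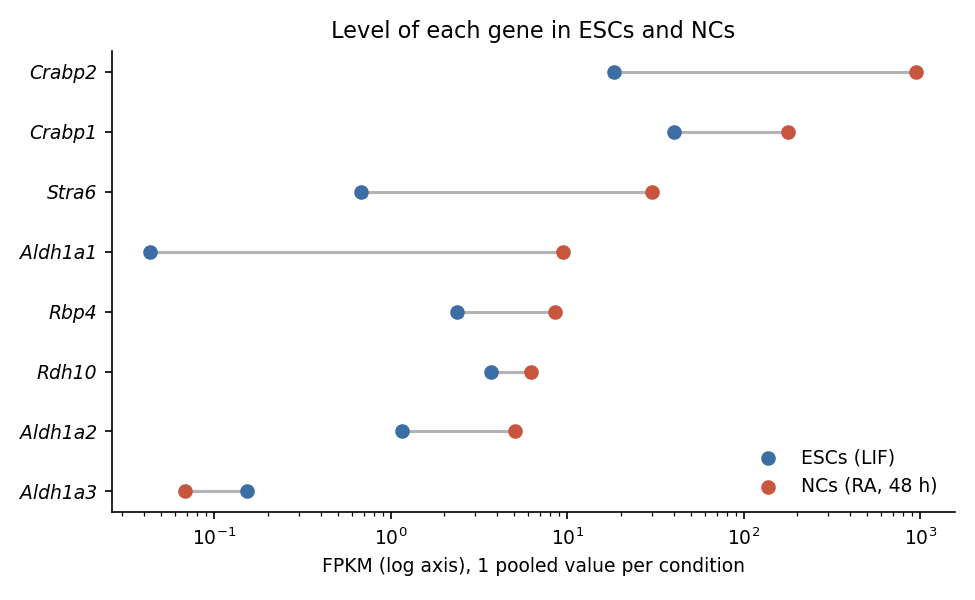
Each row is 1 gene, and the points give the authors' FPKM in ESCs and in NCs on a log axis, joined by a line. Points for 7 genes move to the right from ESCs to NCs, with the longest line for *Aldh1a1* (0.0433 to 9.40 FPKM), and the line of *Aldh1a3* runs the other way (0.153 to 0.0681 FPKM).

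The DNA upstream of the genes is shown first because RAR/RXR receptors recognize pairs of a short core hexamer. In RefSeq promoters of GRCm38.p6, from 250 bases before to 50 bases after each start, 5 of the 8 genes had an entry, with 10 promoters in all. *Aldh1a3*, *Rdh10* and *Crabp2* had no entry and were not searched, and 4 of the 10 promoters belong to *Stra6*. The promoters were searched on both strands for the core AGGTCA and for its variants, which were AGTTCA, then GGGTCA, and last the hexamer GGTTCA. At least 1 of these hexamers was present in 3 of the 10 promoters and in 43.7% of all 32817 promoters. The exact letters AGGTCA were in 0 of the 10 promoters and in 16.3% of all. Direct repeats of any of these hexamers with a spacing of 1, 2 or 5 bases were in none of the 10, and in 0.222%, 0.268% and 0.0975% of all promoters. The upstream matches are printed 5′ to 3′ on the strand of the gene with the hexamer in capitals, to show the letters in the promoters of a synthesis gene and of the carrier gene. Both hold GGGTCA read on the opposite strand, which begins 49 bases before a RefSeq start of *Aldh1a1* that lies inside the longer gene span given below (chr19:20601907-20601936, plus strand) and 53 bases before a start of *Rbp4* (chr19:38125357-38125386, minus strand).
Aldh1a1: ccgatatgcaaaTGACCCttagtgcatgca
Rbp4: aagaataaatatTGACCCaaacagcaccac
The remaining match was AGTTCA in 1 of the 4 promoters of *Stra6*, after a start site that also lies inside the longer gene span given below. These matches describe letters and were not tested as binding sites.

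The ALDH1A enzymes carry out the last step of RA synthesis. *Aldh1a1* (chromosome 19, 20492715 to 20643465, plus strand) went from the lowest level of the 8 genes, 0.0433 FPKM in ESCs, to 9.40 FPKM in NCs. The level was 217-fold higher in NCs, a log2 ratio of 7.76. Its ratio ranked 13th from the top among the genes past the filter that were above 0 in both conditions. The ESC value was in the lowest 9.85% of genes above 0 and the NC value was higher than in 62.4% of them, so the size of the ratio rests on a very low starting value. The depth of single samples is unknown, but the lowest FPKM values of genes with a single transcript lay in steps, and 1 fragment in 1 kb of transcript was worth about 0.0138 FPKM in ESCs, against 0.0135 FPKM in NCs. In NCs a smaller step of 0.00715 FPKM was commoner (135 low values against 58) and would give larger NC fragment numbers than those printed here. A smaller ESC step of 0.0119 FPKM was less common (41 low values against 76). With the larger step of each condition, the ESC value of *Aldh1a1* stands for about 7 fragments, above a floor of 3 fragments (0.0191 FPKM). Its NC value stands for about 1501. With a pseudocount of 1 FPKM its log2 ratio was 3.32.

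Reads of *Aldh1a1* can be shared with *Aldh1a7*, a close paralog that lies 49.5 kb away on the opposite strand. The coding sequences are 91.6% identical over 1503 aligned bases, and 6.54% of the 50-base words of the *Aldh1a1* transcript also occur in *Aldh1a7*. *Aldh1a7*, chosen after its values were seen, went from 0.272 FPKM in ESCs to 22.5 FPKM in NCs, 82.7-fold higher. How the authors' counting split shared fragments between these genes was not tested. The summed FPKM of both genes had a log2 ratio of 6.66, so the pair was higher in NCs however fragments were divided between its members.

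*Aldh1a2* (chromosome 9, 71215789 to 71296243, plus strand) encodes the main RA-synthesizing enzyme of the early embryo. Its FPKM was 1.16 in ESCs and 5.05 in NCs, 4.36-fold higher and a log2 ratio of 2.12. About 174 and 772 fragments stand behind these values, and no 50-base word of its transcript occurs in another gene. Among *Aldh1a1*, *Aldh1a2* and *Aldh1a3*, with *Aldh1a7* left out, *Aldh1a2* thus had the highest level in ESCs and took the second place in NCs.

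*Aldh1a3* (chromosome 7, 66390890 to 66427517, minus strand), the family member known from the developing eye and nose, was close to the lower end of the scale in both conditions. Its FPKM was 0.153 in ESCs and 0.0681 in NCs, which stand for about 36 and 16 fragments with the larger steps. The smaller NC step would give a larger NC number. The log2 ratio was -1.17, but with a mean of 0.111 FPKM the gene was not called. With a pseudocount of 1 FPKM the log2 ratio was -0.11.

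The levels of the ALDH1A genes changed places. Of the summed FPKM of *Aldh1a1*, *Aldh1a2* and *Aldh1a3*, 1.36 in ESCs and 14.5 in NCs (10.7-fold higher), *Aldh1a2* made up 85.5% in ESCs and 34.8% in NCs. The share of *Aldh1a1* was 3.19% in ESCs and 64.7% in NCs, and that of *Aldh1a3* was 11.3% and 0.469%. With *Aldh1a7* counted in, the sum was 22.7-fold higher, and in NCs *Aldh1a7* made up 60.8% and *Aldh1a1* 25.4%. These sums are of transcript levels, and whether the product of *Aldh1a7* makes RA was not tested. *Aldh1a2* was 26.8 times the level of *Aldh1a1* in ESCs, and *Aldh1a1* was 1.86 times the level of *Aldh1a2* in NCs. Outside the *Aldh1a1* and *Aldh1a7* pair the coding sequences of the family were 69.1% to 69.9% identical, and *Aldh1a2* and *Aldh1a3* shared no 50-base words with other genes.

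**Figure D2:**
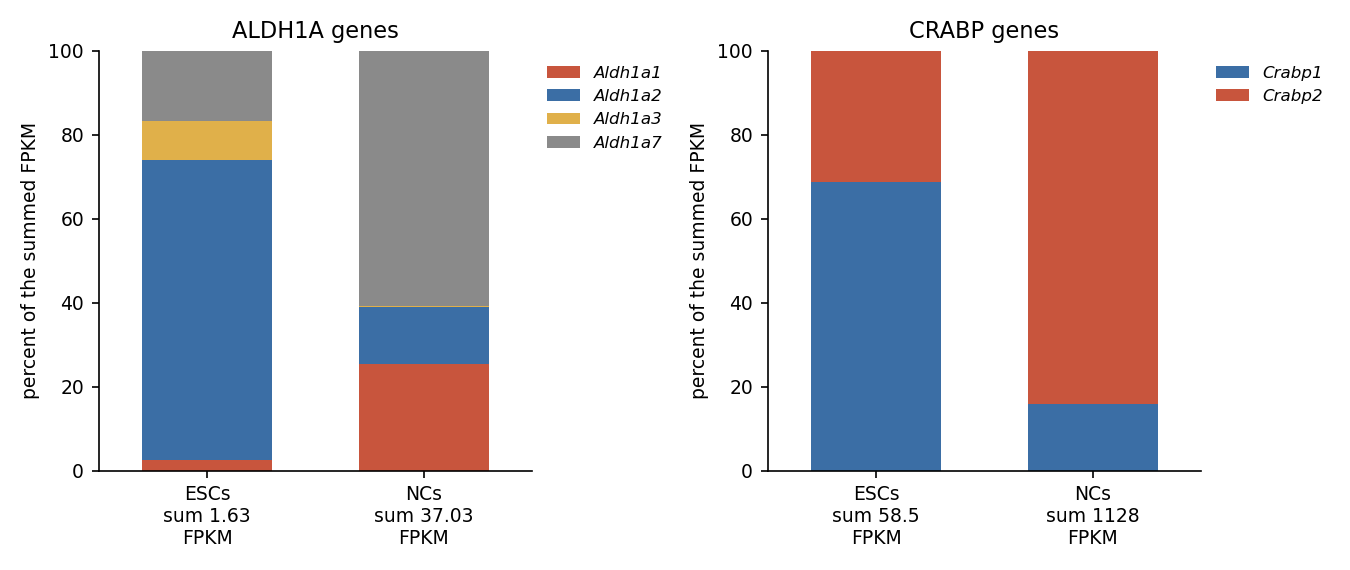
Bars give each gene's percent of the summed authors' FPKM of its family in ESCs and NCs, with the sum under each bar. *Crabp1* holds 68.7% of the CRABP bar in ESCs and 15.8% in NCs. In the ALDH1A bars, here with *Aldh1a7*, *Aldh1a2* holds 71.2% in ESCs and 13.6% in NCs.

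*Rdh10* (chromosome 1, 16105774 to 16133734, plus strand) encodes the dehydrogenase of the retinol to retinal step in the embryo. It had the smallest log2 ratio of the 7 genes past the filter, at 3.70 FPKM in ESCs against 6.19 FPKM in NCs. The value in NCs was 1.67-fold higher, a log2 ratio of 0.74, within the 2-fold limit. Among the genes past the filter that were above 0 in both conditions, 84.7% had a lower ratio. When both conditions were scaled to the same sum of FPKM the log2 ratio was 1.03 and *Rdh10* passed the limit.

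*Rbp4* (chromosome 19, 38116629 to 38125281, minus strand), the gene of the plasma retinol carrier, went from 2.36 FPKM in ESCs to 8.49 FPKM in NCs. The level was 3.60-fold higher in NCs, with a log2 ratio of 1.85. *Rbp4* and *Ttr*, whose product binds the RBP4 and retinol complex in plasma, are both made by visceral endoderm. *Ttr* stood at 0.0848 FPKM in ESCs against 0.526 FPKM in NCs, and the visceral endoderm genes *Afp* and *Apoa1* had at most 0.287 FPKM in either condition. Of the 9 extraembryonic endoderm markers 6 passed the filter and 5 of these were at least 2-fold higher in NCs, with a summed FPKM of 17.3 in ESCs and 40.1 in NCs, led in NCs by *Dab2* (19.3 FPKM). Their part in the difference of *Rbp4* was not tested.

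*Stra6* (chromosome 9, 58063788 to 58153996, plus strand) encodes the receptor through which cells take up retinol from RBP4, and its name stands for stimulated by retinoic acid. It stood at 0.678 FPKM in ESCs against 30.01 FPKM in NCs. The NC value was 44.3-fold higher, a log2 ratio of 5.47. This ratio was the 63rd highest among the genes past the filter that were above 0 in both conditions. About 142 fragments stand behind the ESC value and about 6391 behind the NC value. *Stra6* thus went from 0.287 times the level of *Rbp4* in ESCs to 3.53 times in NCs. The gene has 14 annotated transcripts, which the table does not tell apart, and *Ccdc33* overlaps it on the opposite strand at 0.201 FPKM in ESCs against 0.576 FPKM in NCs. Whether the counting used strand was not given in the sources used here.

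*Crabp1* and *Crabp2* encode small cytoplasmic proteins that bind RA, of which CRABP2 is known to deliver RA to RAR and CRABP1 to hold it in the cytoplasm. *Crabp1* (chromosome 9, 54764748 to 54773110, plus strand) went from 40.2 FPKM in ESCs to 178 FPKM in NCs, 4.43-fold higher. The log2 ratio was 2.15, and the level already lay above that of 86.7% of genes above 0 in ESCs. *Crabp2* (chromosome 3, 87948666 to 87953376, plus strand) went from 18.3 FPKM in ESCs to 949.8 FPKM in NCs. The NC value was 51.9-fold higher, a log2 ratio of 5.70. This ratio was the 56th highest among the genes past the filter that were above 0 in both conditions.

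In NCs *Crabp2* had the 107th highest FPKM of all genes and made up 0.151% of the summed FPKM, against 0.00238% in ESCs. *Crabp1* was 2.20 times the level of *Crabp2* in ESCs, and *Crabp2* was 5.33 times the level of *Crabp1* in NCs. Their summed FPKM was 58.5 in ESCs and 1128 in NCs, a 19.3-fold higher value. The coding sequences were 70.8% identical, and neither transcript shared a 50-base word with another gene.

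Set in order, *Crabp1*, *Crabp2*, *Rdh10*, *Rbp4*, *Aldh1a2*, *Stra6*, *Aldh1a3* and *Aldh1a1* ran from the highest to the lowest FPKM in ESCs. In NCs the order was *Crabp2*, *Crabp1*, *Stra6*, *Aldh1a1*, *Rbp4*, *Rdh10*, *Aldh1a2* and *Aldh1a3*. *Aldh1a1* moved from the lowest to the fourth place and *Stra6* from the sixth to the third. *Rdh10* moved down from the third to the sixth place although its FPKM was not lower in NCs. The NC levels of *Aldh1a1*, *Rbp4*, *Rdh10* and *Aldh1a2* lay between 5.05 and 9.40 FPKM, and without replicate values it is unknown whether these neighbours in the order differ beyond their spread.

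**Figure D3:**
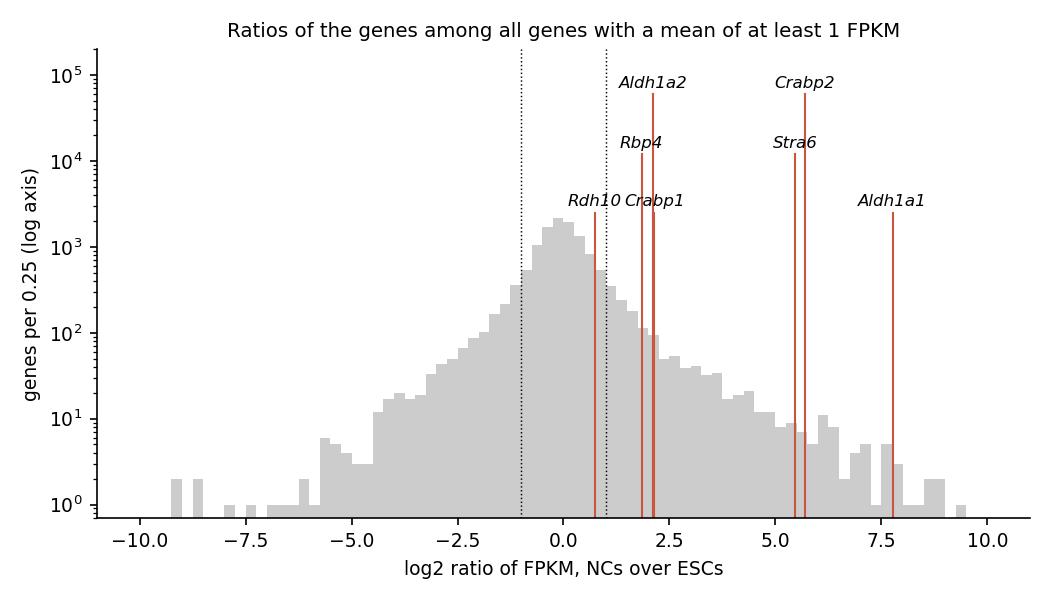
Grey bars count genes with a mean of at least 1 FPKM and a value above 0 in both conditions. They are sorted by their log2 ratio of NC to ESC FPKM in steps of 0.25 (log axis). Red lines mark the 7 members past this filter, and dotted lines mark the 2-fold limit. *Aldh1a1* (7.76), *Crabp2* (5.70) and *Stra6* (5.47) lie in the far right tail, *Crabp1*, *Aldh1a2* and *Rbp4* lie between 1.85 and 2.15, and *Rdh10* (0.74) lies inside the limit. The height of the red lines has no meaning.

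Among the other genes of the pathway, 3 of 9 oxidoreductases past the filter were at least 2-fold higher in NCs, where 11.1% of all genes past it were, and 0 were lower. *Adh1* and *Rdh1* were under 1 FPKM in ESCs and passed through their NC value alone, so they could only be higher and their calls are a description. *Dhrs3*, which reduces retinal back to retinol, went from 2.70 FPKM in ESCs to 49.0 FPKM in NCs. *Adh1*, a cytosolic alcohol dehydrogenase, had 0.149 and 2.22 FPKM, and *Rdh1*, a retinol dehydrogenase, had 0.372 and 3.58 FPKM. The other 12 of the 21 oxidoreductases did not reach a mean of 1 FPKM. The median log2 ratio over the 9 genes was 0.08, against -0.04 over all genes past the filter that were above 0 in both conditions. The remaining 6 past the filter lay within the 2-fold limit.

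Among the receptors past the filter 2 of 6 were higher (11.1% of all genes) and 0 lower. *Rxra*, the partner of the RARs, had 5.17 and 19.2 FPKM, and *Rarb*, a classical RA target, had 0.128 and 25.5 FPKM and passed the filter through its NC value alone. In the clearance group, *Cyp26a1* (0.874 and 215 FPKM), *Cyp26b1* (0.257 and 17.0 FPKM) and *Cyp26c1* (0.338 and 2.37 FPKM) were at least 2-fold higher in NCs. All 3 passed the filter through their NC value alone, so they could only be higher, and no count over their group is read. *Cyp26a1* was 0.754 times the level of *Aldh1a2* in ESCs and 42.6 times in NCs.

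**Figure D4:**
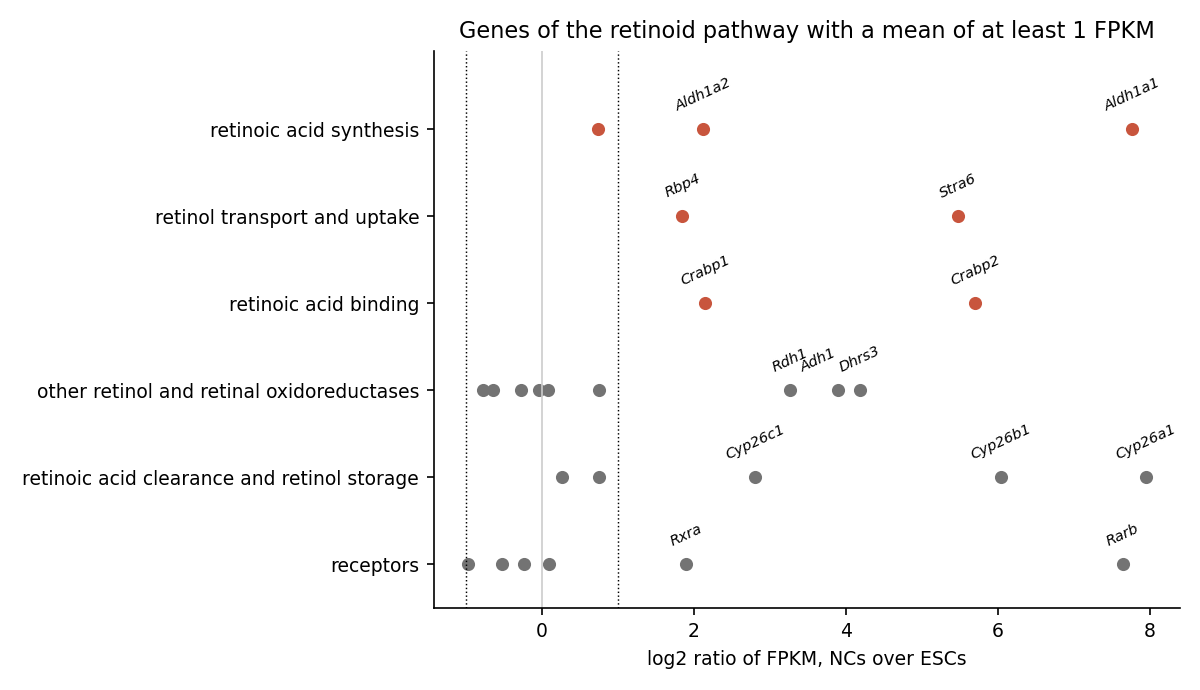
Points give the log2 ratio of NC to ESC FPKM for the genes of 6 groups with a mean of at least 1 FPKM, in rows by role, with the 7 members past the filter in red, other genes in grey and the 2-fold limit dotted. Names are printed for genes past the limit, all of them to the right, from *Rbp4* (1.85) to *Cyp26a1* (7.94).

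The genes are spread over 5 chromosomes, with *Crabp1*, *Stra6* and *Aldh1a2* on chromosome 9 and *Aldh1a1* and *Rbp4* on chromosome 19. *Rbp4* lies 415 kb from *Cyp26a1* on the opposite strand. Within 500 kb on either side of the 8 genes, a window chosen after the data were seen, 10 of 74 other genes past the filter were at least 2-fold higher in NCs (13.5%), near the 11.1% over all genes. Of these 10, *Aldh1a7* lay beside *Aldh1a1*, and *Cyp26a1*, *Cyp26c1* and *Plce1* beside *Rbp4*. *Stra6* had 0 such neighbours among 15.

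Markers were used to check the labels. All 6 pluripotency markers were at least 2-fold lower in NCs (summed FPKM 1773 in ESCs and 154 in NCs), and 4 of 6 neural progenitor markers were higher, such as *Pax6* (3.64 and 65.2 FPKM). Of the 6 neuron markers 3 were lower, such as *Tubb3* (33.4 and 7.54 FPKM), and 0 were called higher. *Dcx*, of the same list, went from 0.0140 FPKM in ESCs to 0.334 FPKM in NCs and lay under the filter. The summed FPKM of the neuron markers was 47.8 in ESCs and 13.3 in NCs, lower in the cells labelled NC. The 6 mesoderm markers all lay under the filter. Of the 5 fibroblast markers 4 were higher and 1 lower, with a summed FPKM of 19.5 in ESCs and 44.0 in NCs. The part of these other cell types in the retinoid genes was not tested.

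The deposited FPKM summed to 770592 in ESCs and 628679 in NCs, and scaling both to the same sum added 0.29 to every log2 ratio. Relative to that shift no direction turned among the 8 genes, and 70.8% of all calls were then in the higher direction, against 52.8% without it.

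**Figure D5:**
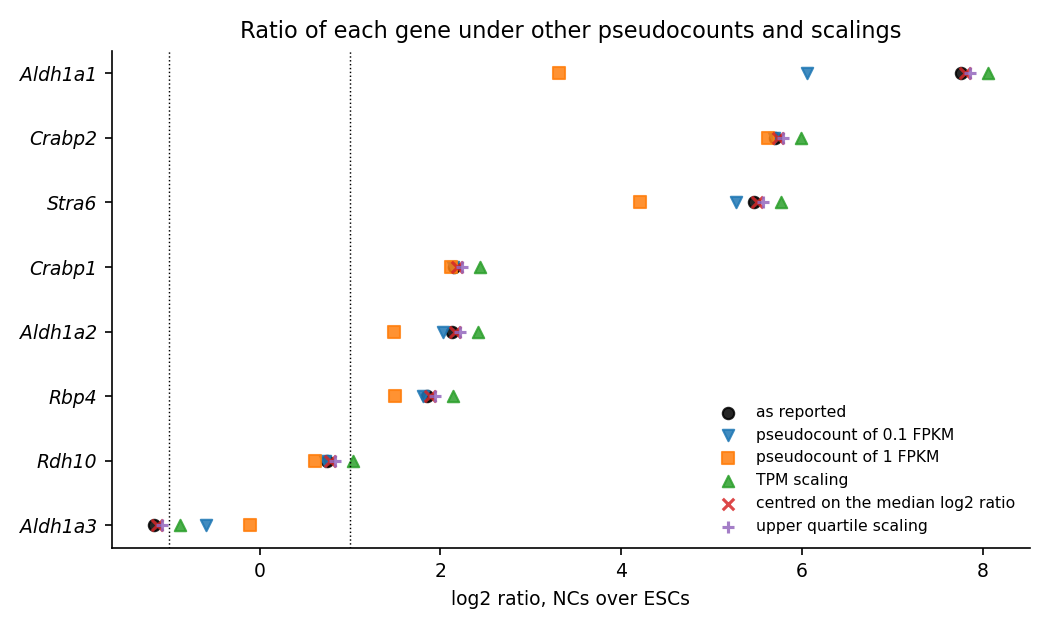
Symbols give the log2 ratio of NC to ESC FPKM of each gene as reported, with a pseudocount of 0.1 or 1 FPKM and under 3 other scalings, and dotted lines mark the 2-fold limit. The pseudocount of 1 FPKM moves *Aldh1a1* most (7.76 to 3.32), while *Crabp2* stays between 5.62 and 5.99 and *Rdh10* between 0.61 and 1.03.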

How the data were processed

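RNA-seq was performed on 3 ESC and 3 NC samples, which were grouped by their GEO titles. The authors aligned the reads to mm10 with TopHat2 (version 2.0.8), which calls Bowtie2 (version 2.1.0), and then used Cufflinks (version 2.0.2) and Cuffdiff to obtain FPKM, deposited as 1 value per gene and condition. The Cuffdiff version, its normalization option and the read length were not given in the sources used here. The heading of the NC column reads FPK and was taken as FPKM. The table also holds the authors' own comparison from Cuffdiff (a status, a fold change and its test results), which were not used. With 1 value per condition no test was run.

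Rows with the same name were summed (160 names), and ratios were computed without a pseudocount. Genes with a mean of at least 1 FPKM were compared at 2-fold. All 8 members are named, other pathway genes when past 2-fold. Members and lists were chosen with earlier results of these data known. *Stra6l* and *Bco1* were matched through their older names. The list of other retinoid carriers is not reported here as a group.

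Positions, transcripts and 50-base words came from GENCODE M21 (GRCm38, the assembly of mm10), and coding sequences were aligned with Biopython 1.88. Fragment numbers assume fragments of 200 bases, use genes with 1 transcript of at least 500 bases and the larger of 2 steps per condition, and cover counting only. Python 3.11.15, numpy 2.4.6, pandas 2.3.3 and matplotlib 3.10.9 were used. Alternatives were pseudocounts, filters, scalings, fold limits and rows kept apart.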

Additional observations from a re-analysis of the deposited data

How the results depend on the processing

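No paired analysis was possible because the table holds 1 pooled value per condition, and for the same reason no replicate could be left out. Under the 11 other settings, *Crabp1*, *Crabp2* and *Aldh1a2* stayed at least 2-fold higher in NCs or past the other fold limit in use, and no direction turned among the 8 genes. The number of genes of the 8 called higher ran from 4, with at least 1 FPKM in both conditions (without *Aldh1a1* and *Stra6*), to 7, with equal sums of FPKM or a 1.5-fold limit (with *Rdh10*). A 4-fold limit left 5 of them, without *Rbp4*. *Aldh1a3* made 1 gene called lower with no filter or with a mean of at least 0.1 FPKM. Counts over all genes moved more. No filter gave 2943 higher and 2401 lower genes, a mean of at least 0.1 FPKM gave 2455 and 1943, a 1.5-fold limit 2472 and 2399, and a 4-fold limit 538 and 426. With at least 1 FPKM in both conditions 873 genes were higher and 924 lower, the 1 setting of the 11 with more lower than higher genes. The sum of *Aldh1a1* and *Aldh1a7* was chosen after the data were seen. Without replicate values the error of every ratio is unknown, and the ESC value of *Aldh1a1* rests on about 7 fragments.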

Other observations

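Several other pathway genes, all but *Fabp5* under a mean of 1 FPKM, were chosen for mention after their values were seen. *Cd36*, a fatty acid translocase that also takes up carotenoids, went from 0.0327 FPKM in ESCs to 1.44 FPKM in NCs. *Adh7*, an alcohol dehydrogenase active on retinol, had 0.102 and 0.822 FPKM. *Stra6l*, which encodes another receptor for RBP4, went from 0.229 FPKM in ESCs to 0.0844 FPKM in NCs, the other direction from *Stra6*. *Lrat*, which esterifies retinol for storage, had 0.0979 and 0.103 FPKM. *Fabp5*, an alternative carrier of RA, had 81.9 and 87.4 FPKM, so that it lay above both CRABP genes in ESCs and below both in NCs.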
